A study of Mus musculus with 6 samples.

Results

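The cytosolic ribosomal protein genes were examined in lung endothelial cells of mice lacking Atp6ap2 in the endothelium. Atp6ap2, also called the (pro)renin receptor, encodes an accessory subunit of the vacuolar proton pump. The genes were taken by symbol: Rpl or Rps followed by a number, with or without the endings a, x, l, al or l1, together with Rpsa, Rplp0, Rplp1 and Rplp2. Of the 24972 gene symbols in the table, 85 met this rule, 53 of the large and 32 of the small ribosomal subunit. The rule did not take Rps3a1, Fau and Rack1, which also encode cytosolic ribosomal proteins, and it took Rpl32l and Rps4l, which GENCODE annotates as processed pseudogenes.

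RNA was sequenced from isolated lung endothelial cells (iLECs), obtained at postnatal day 7 with magnetic beads coated with an antibody to CD31. All 6 libraries are labelled C57BL/6 and Atp6ap2 fl/Y, that is, from males whose single Atp6ap2 allele carries loxP sites, although the study's methods describe a mixed CD1 and C57BL/6 background. All pups received 100 µg of tamoxifen at postnatal days 1 to 3. The 3 Atp6ap2iECKO libraries also carry Cdh5-CreERT2, a tamoxifen-activated recombinase under an endothelial promoter, and the 3 control libraries carry no Cre, so loss of Atp6ap2 and the presence of active Cre cannot be told apart.

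A cytosolic ribosome is built from rRNA and, for most ribosomal proteins, a single copy of each, with a stalk of acidic proteins on the large subunit. Because the subunits need their proteins in equal numbers, ribosomal protein mRNAs are usually kept at steady, high levels, and much of their control acts on translation: most of these mRNAs begin with a run of pyrimidines, the 5′ terminal oligopyrimidine tract, through which mTORC1 and LARP1 set how well they are translated. Some ribosomal proteins also act outside the ribosome, for instance by binding MDM2 when ribosome assembly is disturbed.

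Values are normalized counts, the deposited counts after scaling between libraries, whose sum per library ran from 26243900 to 28725800. Their depth in reads is unknown. Atp6ap2 had 7490, 5815 and 5681 normalized counts in the controls and 4220, 2336 and 1982 in Atp6ap2iECKO, lower in all 3 than in any control. Xist, expressed from the inactive X chromosome of females, stood at 37704 and 44402 in controls 1 and 2 and at 39442 and 47487 in Atp6ap2iECKO 1 and 3, against 31.7 in control 3 and 19.3 in Atp6ap2iECKO 2, so 4 libraries went against their male label. Endothelial markers were present in every library, with summed values of 257690 to 332654 in controls and 273356 to 308130 in Atp6ap2iECKO. Of the 8, 1 (Tek) was called lower, that is, at an adjusted p of 0.05 in the test given below. Markers of fibroblasts summed to 74836 to 117351 in controls and 25887 to 37143 in Atp6ap2iECKO, and 6 of 7 tested were called lower. Mural and smooth muscle markers summed to 12459 to 19116 in controls and 5218 to 6851 in Atp6ap2iECKO, and 6 of 8 were called lower. Of all genes tested, 4.97% were called lower. Among epithelial markers, Scgb1a1 was called higher and the others were not called. Sftpc, another of them, stood at 39068 in control 3, against 15632 and 13596 in controls 1 and 2. Leukocyte and erythroid markers tested were not called. The part of these differences in the results below was not tested, and in bulk samples fewer cells of a type and less RNA per cell cannot be told apart.

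Ribosomal protein mRNAs differed little between genotypes. With values of at least 10 in at least 3 libraries, 81 members could be tested, 49 of the large and all 32 of the small subunit. By limma on log2(value + 1) with Benjamini-Hochberg adjustment over all 14456 genes tested, 3 members passed an adjusted p of 0.05 as higher in Atp6ap2iECKO (Rps27, Rps2 and Rps27l), all of the small subunit, and none passed as lower. Among all genes tested, 3.28% were called higher and 4.97% lower. Leaving out 1 library changed the calls over all genes strongly, to between 28 and 460 higher and between 178 and 658 lower, from 474 and 719, with the fewest without control 3, Atp6ap2iECKO 2 or Atp6ap2iECKO 3. At an unadjusted p of 0.05, 7 members were higher and 1 was lower, while 11.6% of all genes were higher and 12.3% lower. The 3 libraries of one genotype lay entirely above those of the other in Atp6ap2iECKO for 9 members and in controls for 4 members, while 14.7% of all genes lay apart as higher and 15.0% as lower. The estimates were small, and 70 of the 81 log2 fold changes were within 0.2 of 0, with 55 within 0.1.

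**Figure D1:**
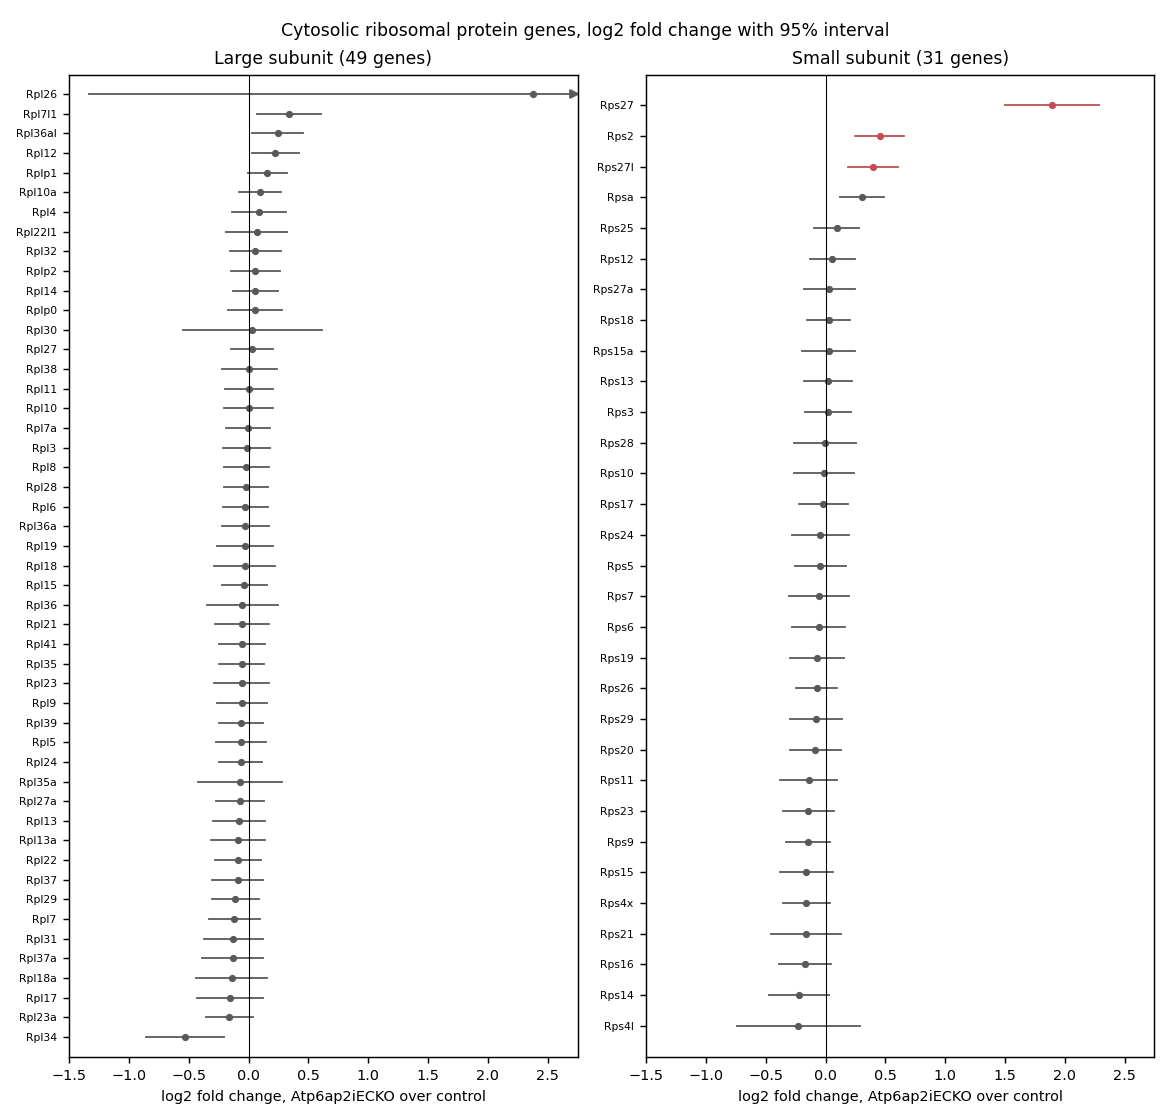
Log2 fold change of Atp6ap2iECKO over control (x axis) for tested ribosomal protein genes (rows), 49 of the large subunit left and 31 of the 32 of the small subunit right (the other is not reported here), with points for the estimate, bars for its 95% interval and red for adjusted p below 0.05. Most estimates lie within 0.2 of 0, and the interval of Rpl26 runs to 6.09, past the right edge, as the arrow shows.

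These estimates were narrow as well as small. The 95% interval of the log2 fold change lay within 0.5 of 0 for 73 of the 81 tested members (90.1%), as it did for 39.0% of all genes tested. The median SD between libraries of one genotype was 0.0992 on the log2 scale for the members and 0.189 for all genes, and 77 of the 81 members were below the latter value. However, 75 of the 81 had a mean of at least 1000 normalized counts, and the members were not compared with genes of like level. Over the members, the log2 fold changes had a median of -0.04, -0.03 for the large and -0.04 for the small subunit, beside 0.00 over all genes tested. The signs were 27 positive and 54 negative, and the median moved to 0.01 without the 2 libraries that lacked Xist. Scaling to library size put the median of the members at -0.00 and that of all genes at 0.05, leaving the members below all genes as before.

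The members made up 2.38%, 2.15% and 2.56% of all normalized counts in the 3 controls and 2.42%, 2.30% and 2.43% in the 3 Atp6ap2iECKO libraries, or 2.36% ± 0.20 and 2.39% ± 0.07 (mean ± SD, n = 3 each). The genotypes overlapped. The summed large subunit genes were 1.44 times the summed small subunit genes in each control, and 1.43, 1.45 and 1.43 times in Atp6ap2iECKO. On the log2 scale this ratio differed by -0.00545 between genotypes, with an SD of 0.00188 between controls and of 0.0111 between Atp6ap2iECKO libraries, whose values lay on both sides of the controls. The libraries did differ from each other in the level of the whole family. Control 2 was the lowest of the 6 libraries for 48 of the 81 members and the highest for none, while controls 1 and 3 were each the highest for 32. The median log2 ratio of the members to the control mean was 0.06, -0.13 and 0.06 in the controls and 0.01, -0.08 and -0.03 in Atp6ap2iECKO, a spread within controls wider than the difference between genotypes.

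**Figure D2:**
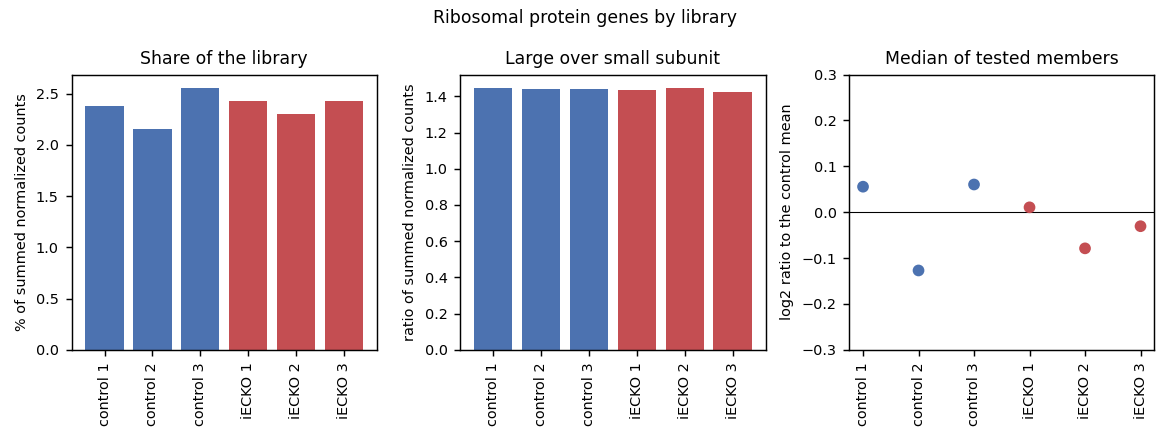
For each library (x axis; blue control, red Atp6ap2iECKO), the share of all normalized counts on ribosomal protein genes (left, %), the ratio of the summed large to the summed small subunit genes (middle), and the median log2 ratio of the 81 tested members to the control mean (right). The share runs from 2.15% in control 2 to 2.56% in control 3, the ratio is nearly level, and control 2 has the lowest median.

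Per kilobase of the shortest principal transcript, the level of tested members, averaged over the 6 libraries, ran from 147 to 19923 normalized counts in the large subunit, with a median of 8907 over 49 genes. In the small subunit it ran from 625 to 20327, with a median of 11821 over 31 genes. Highest per kilobase were Rps6 (20327), Rps12 (19758) and Rps4x (18991) in the small subunit and Rpl10 (19923), Rpl31 (16685) and Rpl41 (16024) in the large subunit. Lowest were Rpl26 (147), Rpl30 (386) and Rpl7l1 (876), and Rps27 (625), Rps27l (1512) and Rps20 (2280). The low value of Rps20 rests on an annotated transcript of 3706 bases against a median of 681 for the tested members, and those of Rpl26, Rpl30 and Rps27 are taken up with their copies below. Of the 4 members under the filter, Rpl10l was at 0 in every library, and Rpl3l, Rpl39l and Rpl32l stayed at or below 5.03, 2.38 and 13.7 normalized counts.

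In the small subunit, Rps2, Rpsa and Rps27l lay above the controls in every Atp6ap2iECKO library and had no near-identical copy in the table. Rps4x and Rps9 lay below the controls in the same way and are given further on. RPS2 lies near the mRNA entry channel of the small subunit. Rps2 (chr17:24718116-24721929, GRCm38) had 8820, 10328 and 9856 normalized counts in the controls and 13132, 13502 and 12942 in Atp6ap2iECKO. All Atp6ap2iECKO values were above all control values, and the log2 fold change was 0.45 ± 0.0873 (SE; adjusted p = 0.0239), a 1.37-fold rise. RPS27L is a paralog of RPS27 whose gene is a known target of p53. Rps27l (chr9:66946086-66949516) had 688, 643 and 623 in the controls and 871, 852 and 849 in Atp6ap2iECKO, without overlap and with little spread. It rose by 0.40 ± 0.092 on the log2 scale (adjusted p = 0.0397). Both calls were lost when 1 of several libraries was left out: Rps2 had adjusted p of 0.0515 to 0.102 without control 3 or without any one Atp6ap2iECKO library, and Rps27l of 0.0866 to 0.138 without any one library but control 1. With the presence of Xist as a covariate, Rps27l had an adjusted p of 0.0723 and 2 members passed, Rps2 and Rps27.

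RPSA, or laminin receptor, is a small subunit protein that is also known as a laminin-binding protein of the cell surface. Rpsa (chr9:120127689-120132369) had 14220, 14100 and 14724 normalized counts in the controls and 17988, 17013 and 18021 in Atp6ap2iECKO. The genotypes did not overlap, with a log2 fold change of 0.30 ± 0.0798, but the adjusted p was 0.0589. After scaling to library size, which put the median log2 fold change of all genes at 0.05, the log2 fold change of Rpsa was 0.34 and its adjusted p 0.0373. Without the libraries lacking Xist (control 3 and Atp6ap2iECKO 2), no gene of the table passed the threshold. The log2 fold changes were then 0.45 for Rps2, 0.37 for Rps27l and 0.35 for Rpsa.

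**Figure D3:**
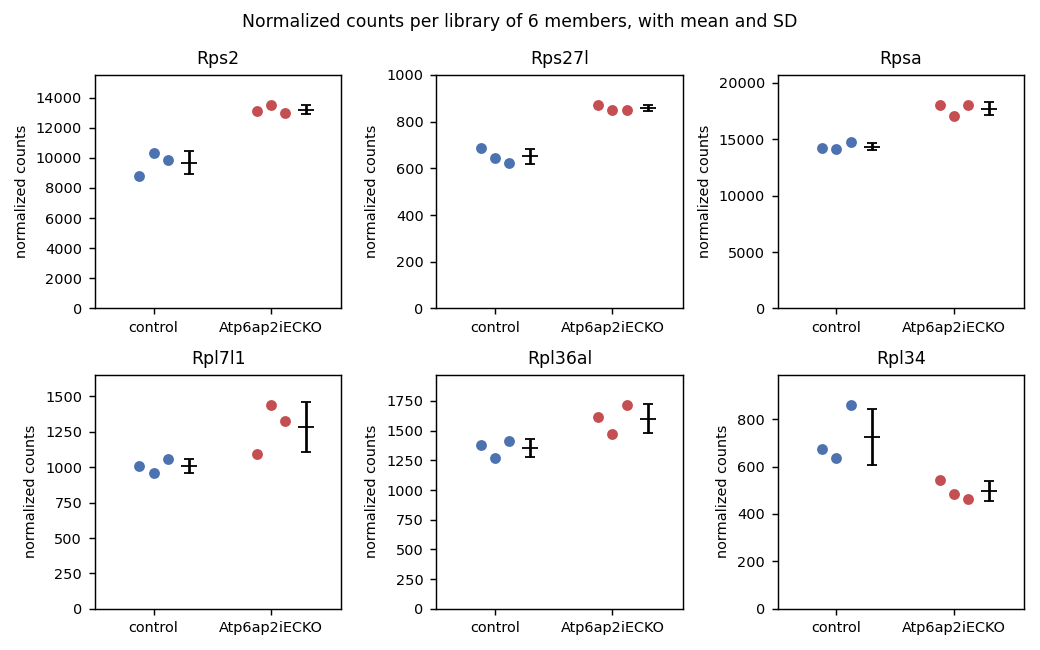
Normalized counts (y axis, from 0) of 6 ribosomal protein genes in the 3 control (blue) and 3 Atp6ap2iECKO libraries (red), with a bar for the mean and SD of each genotype. Atp6ap2iECKO lies above control without overlap for Rps2, Rps27l, Rpsa, Rpl7l1 and Rpl36al, and below it for Rpl34.

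The promoter windows of these genes are shown because the pyrimidine tract by which ribosomal protein mRNAs are controlled lies at the start of the mRNA. Each runs from 25 bases before to 30 bases from the annotated start (RefSeq, GRCm38.p6), 5′ to 3′ on the gene's strand, with the longest run of C and T, or the first of equal ones, in capitals. Rps6 is printed as a member with a run of 10 whose level hardly differed, Rps2 as the member called higher with a run of 6.
Rps6 (chr4:86857338-86857392): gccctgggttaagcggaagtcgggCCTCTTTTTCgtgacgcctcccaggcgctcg
Rps2 (chr17:24720038-24720092): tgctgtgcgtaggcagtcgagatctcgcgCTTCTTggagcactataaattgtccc
Rpsa (chr9:120127741-120127795): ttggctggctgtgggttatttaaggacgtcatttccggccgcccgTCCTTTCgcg
Rps27l (chr9:66946061-66946115): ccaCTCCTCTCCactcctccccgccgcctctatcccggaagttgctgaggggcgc
The window of Rps27l is the first of 2 starts listed for it. Its marked run, and a second of the same length after it, lie before the annotated start, while that of Rps6 spans the start. The marked runs of Rps2 and Rpsa lie after the start. Promoters of 64 members were in the table. A run of at least 7 pyrimidines lay in this window for 43 of the 64 (67.2%), as it did for 34.6% of the 27025 genes with a promoter. The run could lie anywhere in the window, and at any start listed for the gene. These shares therefore do not measure a tract at the first base of the mRNA. The median log2 fold change was -0.03 for the 41 tested members with such a run and -0.03 for the 19 without. Over the 300 bases of each promoter and both strands, the ETS family motif CCGGAAG was found in 39.1% of the members and 9.93% of all genes, and AAGATGG, the core letters bound by YY1, in 15.6% and 7.28%. TATAAA was found in 12.5% and 15.7%, and the E-box CACGTG in 9.38% and 8.09%. Among tested genes alone, CCGGAAG was in 40% of 60 members and 18.5% of 11263 genes, and AAGATGG in 16.7% and 7.90%. The order turned for TATAAA, in 11.7% and 9.12%, and for CACGTG, in 10% and 11.2%. The end of CCGGAAG can overlap the start of AAGATGG, and these matches describe letters, not binding.

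Rps27 gave the largest call, but it held few of the counts that it shares with a near-identical gene. RPS27 is a zinc finger protein of the small subunit. Rps27 (chr3:90212522-90213651) had 80.0, 90.6 and 103 normalized counts in the controls and 350, 320 and 350 in Atp6ap2iECKO, a log2 fold change of 1.89 ± 0.17 (adjusted p = 0.00558) with no overlap. Rps27rt (chr9:114982366-114982739), annotated as a protein coding gene of 1 exon, has a coding sequence with 0 differences from that of Rps27 over 255 bases, so the following is the coding sequence of both, here in lower case throughout.
Rps27 and Rps27rt coding sequence: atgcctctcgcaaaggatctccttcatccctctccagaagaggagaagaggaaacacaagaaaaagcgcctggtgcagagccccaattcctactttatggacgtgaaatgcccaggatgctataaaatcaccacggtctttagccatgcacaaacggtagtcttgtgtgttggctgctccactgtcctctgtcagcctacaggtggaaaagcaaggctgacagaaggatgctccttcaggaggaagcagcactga
Of the 345 bases of the principal Rps27 transcript, 341 were also in that of Rps27rt. Around the annotated starts the genes part ways upstream of a shared stretch, which is in capitals.
Rps27 (chr3:90213619-90213673): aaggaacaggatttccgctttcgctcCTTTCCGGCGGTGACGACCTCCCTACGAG
Rps27rt (chr9:114982710-114982764): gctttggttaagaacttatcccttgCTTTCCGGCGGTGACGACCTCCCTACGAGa
Nearly all counts of the pair were on Rps27rt, with 7316, 6272 and 8091 in the controls and 6572, 5450 and 5957 in Atp6ap2iECKO. Its log2 fold change was -0.27 (adjusted p = 0.209). Rps27 took 1.08%, 1.42% and 1.25% of the pair in the controls and 5.05%, 5.55% and 5.55% in Atp6ap2iECKO. With the copy added to Rps27, an alternative chosen after seeing the data, the sums were 7396, 6362 and 8194 in the controls and 6922, 5770 and 6307 in Atp6ap2iECKO. The genotypes then overlapped, and the sum gave a log2 fold change of -0.20 (adjusted p = 0.331). The share of the pair on Rps27 differed, while the level of mRNA with this coding sequence was not shown to differ. Rps27 held at most 5.55% of the sum, so a rise of Rps27 itself would hardly show in it. Whether Rps27 mRNA rose or reads were divided differently between the 2 genes was not tested.

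**Figure D4:**
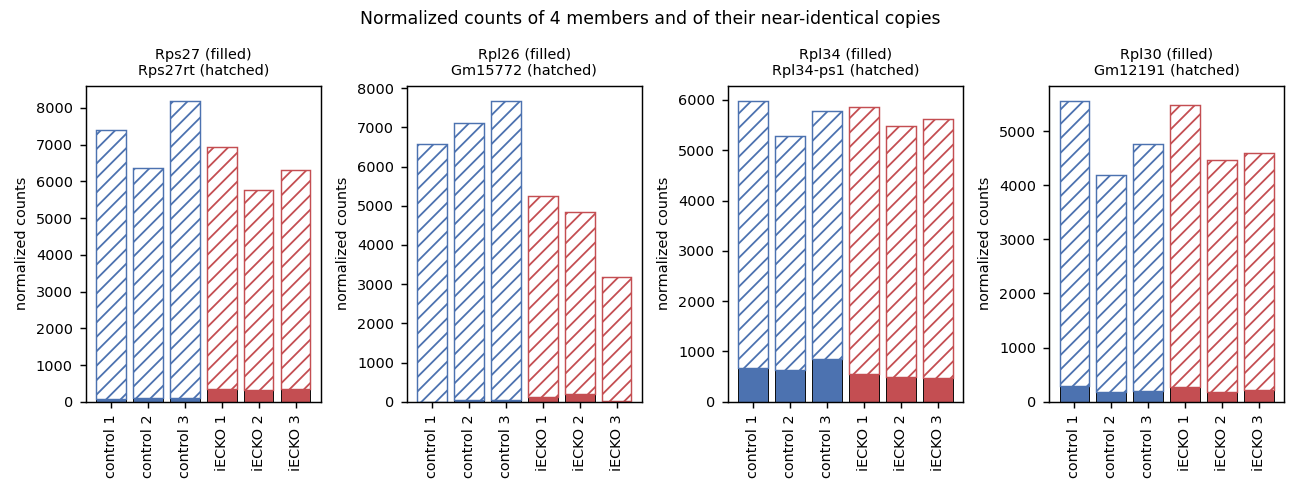
Normalized counts (y axis, from 0) in each library (x axis; blue control, red Atp6ap2iECKO) of 4 ribosomal protein genes (filled) and of their near-identical copies (hatched, stacked on top). The copy holds most of each bar, Rps27 takes more of its bar in Atp6ap2iECKO, and of the 4 summed bars only that of Rpl26 with Gm15772 is lower in every Atp6ap2iECKO library than in any control.

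By the cut used here, 10 members had a near-identical copy: at least 50% of the stretches of 31 bases in another gene of the table were also in theirs. Counts of further members could be shared too. Of the stretches in Rpl35 and Rps23, which had no copy by this cut, 33.6% and 47.3% were in no other gene of the table. In Rpl14, Rpl22l1, Rpl31, Rps15a and Rps26, the member kept 93.8% to 99.9% of the summed counts in every library, and adding the copy left the log2 fold changes between -0.13 and 0.06. In Rpl26, Rpl34 and Rpl30 the copy, an intronless processed pseudogene, held most of the counts. Over the length of the pseudogene, the bases that tell them apart are few. They are shown in capitals, numbered from the first base of the pseudogene with the member's base first.
Rpl26 (C177T): aggttgttcgCggacactaca
Gm15772 (C177T): aggttgttcgTggacactaca
Rpl26 (T288C): caaccgtccaTgtgggcatcc
Gm15772 (T288C): caaccgtccaCgtgggcatcc
Rpl34 (T132C): cacctaaatcTgcatgtggcg
Rpl34-ps1 (T132C): cacctaaatcCgcatgtggcg
Rpl34 (C318G): ttgtgaaagtCttgaaggcac
Rpl34-ps1 (C318G): ttgtgaaagtGttgaaggcac
Rpl30 (G96A): tgggctacaaGcagactctga
Gm12191 (G96A): tgggctacaaAcagactctga
These are all the differences over the 438 bases of Gm15772, the 354 bases of Rpl34-ps1 and the 348 bases of Gm12191. The members' transcripts are longer. Outside the aligned stretch lie 88 of 526 bases in Rpl26, 126 of 480 in Rpl34 and 222 of 570 in Rpl30.

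RPL26 lies near the exit of the nascent peptide and is also known to bind p53 mRNA. Rpl26 (chr11:68901583-68906989) had 0, 56.5 and 55.7 normalized counts in the controls and 133, 202 and 15.8 in Atp6ap2iECKO. The libraries overlapped, and the log2 fold change of 2.38 had a 95% interval from -1.33 to 6.09 (adjusted p = 0.423). Gm15772 (chr5:3236431-3236868) held 6582, 7066 and 7625 in the controls and 5115, 4646 and 3164 in Atp6ap2iECKO, all below the controls, and fell by 0.75 ± 0.17 on the log2 scale (adjusted p = 0.0377). The summed pair had 6582, 7123 and 7681 in the controls and 5248, 4848 and 3180 in Atp6ap2iECKO, and fell by 0.72 ± 0.178 (adjusted p = 0.048). It was the only member whose value with copies added passed as lower. Atp6ap2iECKO 3 was the lowest library, and without it Gm15772 had a log2 fold change of -0.54 (adjusted p = 0.0596). Leaving out any other library but Atp6ap2iECKO 1 also lost the call, with adjusted p of 0.0623 to 0.121.

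RPL34 is a protein of the large subunit. Rpl34 (chr3:130726831-130730398) had 675, 637 and 858 normalized counts in the controls and 545, 483 and 463 in Atp6ap2iECKO, without overlap. Its log2 fold change was -0.53 ± 0.141, the lowest of the tested members, and the adjusted p was 0.0587. It took 11.3%, 12.1% and 14.9% of the pair with Rpl34-ps1 in the controls and 9.28%, 8.80% and 8.23% in Atp6ap2iECKO. The summed pair had a log2 fold change of -0.00 (adjusted p = 0.988), with 5983, 5281 and 5771 in the controls and 5869, 5490 and 5626 in Atp6ap2iECKO. Rpl30, with its copy Gm12191, took 4.09% to 5.18% of the pair in the controls and 3.83% to 4.96% in Atp6ap2iECKO, and the sum had a log2 fold change of 0.01.

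In the large subunit no member passed the threshold. The highest estimates with a mean of at least 100 were those of paralogs. RPL7L1, a relative of RPL7, acts in the making of the large subunit. Rpl7l1 (chr17:46773907-46782672) had 1009, 962 and 1057 normalized counts in the controls and 1095, 1437 and 1326 in Atp6ap2iECKO, without overlap, and a log2 fold change of 0.34 ± 0.116 (adjusted p = 0.121). Atp6ap2iECKO 1 was closest to the controls, and without it the adjusted p was 0.045. RPL36AL is nearly the same protein as RPL36A. Rpl36al (chr12:69182731-69184083) had 1381, 1266 and 1414 in the controls and 1617, 1473 and 1713 in Atp6ap2iECKO, also without overlap, giving a log2 fold change of 0.24 ± 0.092 (adjusted p = 0.157). Rpl12, named here after its value was seen, is a neighbour of the stalk and had 6427, 6227 and 7133 in the controls and 7509, 7382 and 8187 in Atp6ap2iECKO, a log2 fold change of 0.22 (adjusted p = 0.164).

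Set against the gene each is named after, paralog mRNAs took larger shares in Atp6ap2iECKO for 3 of 4 pairs put together here. Rpl7l1 amounted to 5.44%, 6.09% and 6.25% of Rpl7 in the controls and 6.76%, 9.30% and 8.58% in Atp6ap2iECKO. Rpl36al amounted to 40.9%, 42.0% and 41.2% of Rpl36a in the controls and 47.5%, 47.7% and 54.9% in Atp6ap2iECKO. Rps27l amounted to 9.31%, 10.1% and 7.61% of the sum of Rps27 and Rps27rt in the controls and 12.6%, 14.8% and 13.5% in Atp6ap2iECKO. None of these 3 overlapped between genotypes. These shares were put together after the values were seen and carry no test, and the 3 paralogs were already among the largest rises. Left out were Rpl3l, Rpl10l, Rpl32l and Rpl39l, which were under the filter. Also left out was the pseudogene Rps4l, which overlapped between genotypes with a log2 fold change of -0.23. RPL22L1, the paralog of RPL22, differed from the others: Rpl22l1 amounted to 30.8%, 42.4% and 35.2% of Rpl22 in the controls and 37.2%, 42.2% and 40.7% in Atp6ap2iECKO, with overlap. The log2 fold change of Rpl22l1 was 0.07 and that of Rpl22 was -0.09.

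The 3 stalk proteins recruit elongation factors to the ribosome. Rplp1 had 7050, 6739 and 6924 normalized counts in the controls and 7770, 7510 and 7799 in Atp6ap2iECKO, with no overlap but a log2 fold change of only 0.16 (adjusted p = 0.229). Rplp0, the base of the stalk, and Rplp2, the partner of Rplp1, overlapped between genotypes, with log2 fold changes of 0.05 and 0.06. RPL5 and RPL11 bind MDM2 together with 5S rRNA when ribosome assembly fails. Rpl5 had 15159, 12968 and 14814 in the controls and 13459, 14012 and 13558 in Atp6ap2iECKO, and Rpl11 had 7057, 6261 and 7487 against 6948, 6866 and 6944. Both overlapped, with 95% intervals of the log2 fold change from -0.27 to 0.15 and from -0.20 to 0.20.

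RPS6 is the substrate of S6 kinase. Rps6 had 19885, 16831 and 17951 normalized counts in the controls and 18411, 17116 and 16891 in Atp6ap2iECKO, a log2 fold change of -0.06 with an interval from -0.28 to 0.16. Rps27a, whose product is made as a fusion with ubiquitin, and Rps3, which also takes part in DNA repair, had log2 fold changes of 0.03 and 0.02. Rpl13a, known for a role in translational silencing, and Rps19, the gene most often mutated in Diamond-Blackfan anaemia, had -0.09 and -0.07. Rps14, whose loss on the long arm of a human chromosome is linked to a macrocytic anaemia, had 12544, 9984 and 11385 in the controls and 10506, 9224 and 9263 in Atp6ap2iECKO. It had one of the lower estimates, -0.22, with overlap and an adjusted p of 0.257.

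Of the members on the X chromosome, Rps4x had 20591, 18415 and 19681 normalized counts in the controls and 17812, 17423 and 17178 in Atp6ap2iECKO, all below the controls. Its log2 fold change was -0.16 (adjusted p = 0.302). Rps9, not on the X chromosome and named after its value was seen, also lay below the controls in every Atp6ap2iECKO library. It had 14002, 12660 and 13421 against 12280, 11886 and 11994, a log2 fold change of -0.15 (adjusted p = 0.311). On the X chromosome, Rpl10, Rpl36a and Rpl39 overlapped between genotypes, with log2 fold changes of -0.00, -0.03 and -0.06. Other low estimates were those of the pseudogene Rps4l (-0.23), Rps16 (-0.17) and Rps21 (-0.16), with adjusted p of 0.593, 0.318 and 0.486. Outside the symbol rule, Rps3a1, Fau and Rack1 had log2 fold changes of -0.00, -0.23 and 0.01, and the lowest adjusted p was 0.32.

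The genes that make and serve the ribosome gave a different picture from its own proteins. Beside the counts below stand 3.28% of all genes tested called higher and 4.97% called lower. Of 67 tested ribosome biogenesis genes, 27 were higher and 0 lower, with a median log2 fold change of 0.43, and 64 were positive. Among them were Rrp12, Nhp2, Rrp15, Tsr1 and Mrto4, with log2 fold changes of 1.21, 1.05, 1.05, 0.98 and 0.89. Importins and dedicated chaperones that carry new ribosomal proteins had 4 of 15 higher, among them Grwd1, the chaperone of RPL3 (1.30), Ipo4 (0.70) and Ipo5 (0.69), and 0 lower. Mitochondrial ribosomal protein genes were positive in 71 of 78, with a median of 0.22, but 1 (Mrpl12, 0.68) passed as higher and 0 as lower. The median of the cytosolic members, -0.04, lay below all 3. The lists here and below were not counted in the fits with 1 library left out, where calls over all genes fell.

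**Figure D5:**
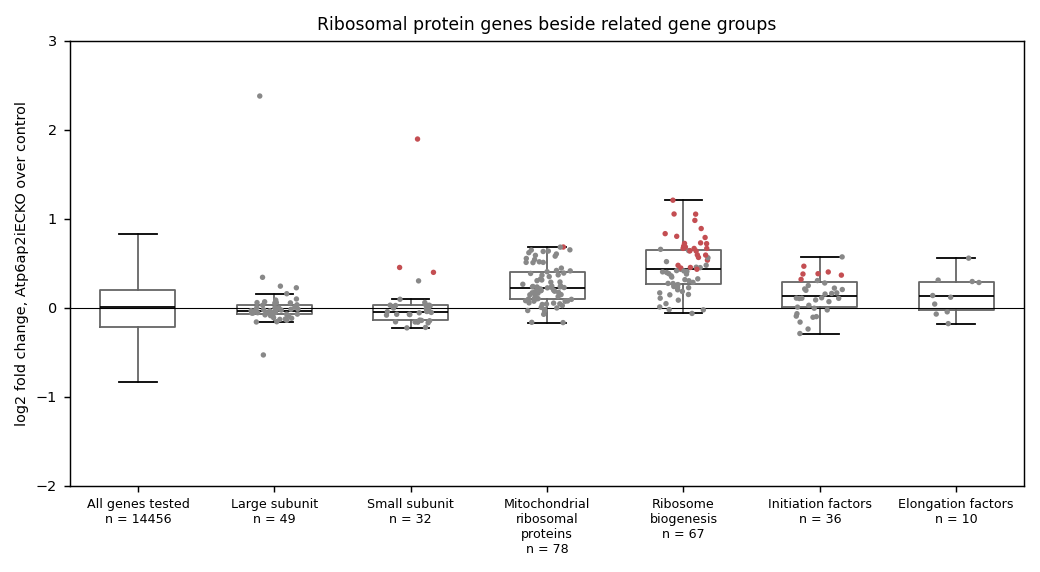
Log2 fold change of Atp6ap2iECKO over control (y axis) for all genes tested, for ribosomal protein genes by subunit and for 4 related gene groups. Boxes show the median and quartiles, whiskers reach to 1.5 times the interquartile range, points are genes (not drawn for all genes tested) and red marks adjusted p below 0.05. The boxes of both subunits are narrow and near 0, the box of ribosome biogenesis is centred on 0.43, and the initiation factor Eif3j1, at 6.79 and not called, lies above the plotted range.

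Translation factors lay between these. The lists overlap: Npm1 and Rrs1 are also counted under ribosome biogenesis and Nap1l1 under chaperones, and the list for the 5S particle holds the members Rpl5 and Rpl11. Of all genes tested, 3.28% were called higher and 4.97% lower. A single call in a list is therefore not read as a result about that list. Of 36 tested initiation factors, 6 were higher and 0 lower, with a median of 0.13: Eif2s1 (0.47), Eif2b5 (0.40), Eif6, which keeps free large subunits from joining (0.38), Eif4g1 (0.38) and Eif3b (0.37) were the furthest. The list of elongation and termination factors held 10 tested genes, among them Eef1e1 and Eef2k, which are not such factors themselves. None of the 10 passed, and 4, with Eef1e1 (0.56) among them, were higher at an unadjusted p of 0.05, beside 11.6% of all genes. Of 20 other genes whose mRNAs begin with a pyrimidine tract, 2 were higher, Npm1 (0.48) and Nap1l1 (0.37), 0 were lower and the median was 0.00. In the list for the 5S particle and the p53 checkpoint, 2 of 10 were higher, Rrs1, which helps deliver the 5S particle (0.69), and Trp53 (0.40), and 0 lower. Of 19 tested genes of RNA polymerase I, Polr1a (0.94) was higher, and of 10 transcription factors of ribosomal protein genes, Myc (0.82). In ribosome quality control and recycling, 1 of 16 was higher, Abce1 (0.46), and none of 27 mTORC1 genes passed, with 4 higher and 2 lower at an unadjusted p of 0.05, beside 11.6% and 12.3% of all genes.

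Sequence sharing limits what can be said of single members. Stretches of 31 bases found in no other annotated gene made up a median of 54.7% of each member's transcripts, and under 50% in 34 of the 83 members with a value. They made up 37.8% in Rps2, 65.1% in Rpsa and 77.1% in Rps27l.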

How the data were processed

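Total RNA of CD31-isolated lung cells was made into libraries with a TruSeq kit and sequenced, and the authors aligned reads to mm10 and compared genotypes with BaseSpace tools. The annotation used for counting, and whether strand was used, are not given in the sources used here. The deposited table holds 24972 gene symbols by 6 libraries. The labels call its values raw counts, but they are not whole numbers and whole reads could not be recovered, so they were treated as a signal: normalized counts scaled between libraries by the authors. A count test, as first planned for whole counts, was not used.

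Genes with at least 10 normalized counts in at least 3 libraries were tested with limma 3.58.1 (R 4.3.3, trended variance, two-sided) on log2(value + 1), with Benjamini-Hochberg adjustment over 14456 genes and a threshold of 0.05. The added 1 draws the fold change of low genes toward 0. A library at 0 can instead make it large, as for Rpl26 and Eif3j1. The fit was tested on simulated data. P-values measure the spread between 3 libraries per genotype, each taken as a separate animal or pool, which the labels do not state. An exact permutation test of 3 against 3 cannot go below 0.1 and was not used.

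The members and lists were chosen with earlier results of these data known. Members were named by these rules: past the threshold; the 6 largest rises and 6 largest falls with a mean of at least 100; the 3 highest and 3 lowest per kilobase in each subunit; paralogs beside the gene they are named after; genes with a fixed role; and genes on the X chromosome. Of the lists, at most 5 called genes were named. Positions, transcripts and copies came from GENCODE M21 (GRCm38), alignments from Biopython 1.88, and promoters from RefSeq. All 85 symbols matched GENCODE. Alternatives were leave-one-out fits, other scalings, pseudocounts of 0.5 and 8, no filter or one of at least 50, a replicate block, the presence of Xist as a covariate, variance with no trend, other thresholds and the addition of near-identical copies. The values of some single genes are not reported here.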

Additional observations from a re-analysis of the deposited data

How the results depend on the processing

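Of the 3 members called higher, 1 to 3 passed when 1 library was left out. Without control 3 and Atp6ap2iECKO 2, the libraries without Xist, 0 passed, as for every gene of the table in this fit of 2 against 2. With no variance trend 1 passed, and at an adjusted p of 0.01 also 1 (Rps27). The count of members called lower, 0, became 1 at an adjusted p of 0.1 and 1 when near-identical copies were added, which was chosen after seeing the data. That addition reversed Rps27 to -0.20 and Rpl26 to -0.72 on the log2 scale. The difference between subunits, by mean log2 values in place of summed values, was -0.0143. Leaving out 1 library kept the median log2 fold change of the members between -0.11 and -0.01, the log2 ratio of large to small subunit between -0.01 and -0.00, and the difference in the members' share of all counts between -0.08 and 0.12 percentage points.

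The deviations of same-numbered libraries of the genotypes had correlations of 0.252, 0.114 and 0.078, beside -0.208 to 0.1 for libraries of different number. The main fit did not take the numbers as pairs, and whether they are pairs was not tested. With a replicate block, 3 members passed as higher and 0 as lower, with a median log2 fold change of -0.04, while calls over all genes went from 474 to 670 higher and from 719 to 838 lower. Of 612 refitted values for 36 named members, 590 kept their call or moved by less than the spread between libraries, 15 lost a call, 2 gained one, 3 moved further and 2 reversed. Among values called neither in the main fit nor in the refit, 31 changed sign. The table holds no mitochondrially encoded genes, so leaving them out of the total could not be run. Without read depth, no counting error can be given.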
